A study of Mus musculus with 10 samples.

Results

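Intercalated cells of the kidney collecting duct (CD) secrete acid or base into the urine. The 10 transporters, channels and enzymes followed here serve these cells, though not all of them are particular to these cells. Their levels were compared across UB organoids, CD organoids and the adult CD. The genes were taken by name from the deposited table, and all 10 were found among its 39273 genes. *Slc4a1*, *Aqp6* and *Slc26a7* stand for the acid-secreting type A cell, *Slc26a4* and *Slc4a9* for the base-secreting type B cell, *Rhcg* and *Rhbg* for ammonia transport, and *Car2*, *Car12* and *Car4* for the carbonic anhydrases. All 10 held at least 10 counts over the libraries and entered the test.

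In type A cells a proton pump faces the urine and the chloride/bicarbonate exchanger AE1 (*Slc4a1*) returns bicarbonate to the blood. In type B cells the exchanger pendrin (*Slc26a4*) faces the urine and AE4 (*Slc4a9*) lies on the blood side. Carbonic anhydrases supply protons and bicarbonate to both cell types, the Rh glycoproteins move ammonia, and the forkhead factor FOXI1 is required for intercalated cells to form.

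RNA was sequenced in bulk from 2 libraries of each of 5 groups. UB organoids, grown from mouse ureteric bud (UB) progenitors, were sampled on days 5, 10 and 20 of expansion. CD organoids were day 10 UB organoids kept for 7 days in CD differentiation medium, which held FGF9, Y27632, the Notch inhibitor DAPT, the MEK inhibitor PD0325901, aldosterone and vasopressin. The labels give every library the background C57BL/6 x Swiss Webster, the genotype Wnt11-RFP +/- and the age Embryonic day 11, and give the tissue as kidney UB or kidney CD. The labels also call the adult libraries organoids, whereas the study's methods describe adult mCD as cells sorted, without culture, by the *Hoxb7*-Venus reporter, which marks the UB lineage, from mice aged 2 months. The adult values are therefore those of sorted cells as the methods have it. Nothing in the labels says whether the 2 libraries of a group came from separate cultures or animals, so the p-values measure only the spread between these libraries, which may be technical. In bulk RNA, fewer cells of a type and less RNA per cell cannot be told apart.

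Totals ran from 22858971 to 24536676 counts in the day 5 and day 10 libraries and from 11913613 to 16759872 counts in the other 6, so that the limit set by a count of 0 (3 counts) lay between 0.109 and 0.241 CPM, the unit of a gene's counts after scaling to a common library size. Mitochondrial genes held 9.64% and 9.86% of the counts in adult mCD and 0.969% to 3.39% elsewhere. The 4 UB tip markers summed to between 1764 and 3493 CPM in UB organoids, to 129 and 128 CPM in CD organoids and to 89.9 and 74.3 CPM in adult mCD. The 8 principal cell markers summed to at most 226 CPM in UB organoids, to 1497 and 1334 CPM in CD organoids and to 11986 and 11518.5 CPM in adult mCD. Adult mCD also held the markers of other nephron segments. Its 8 proximal tubule markers summed to 3566 and 4313 CPM, its 4 thick ascending limb markers to 3382 and 3576 CPM and its 6 endothelial markers to 719 and 699 CPM, with none of these genes at 0. The same 3 lists summed to no more than 10.2 CPM in either CD organoid library. Markers of the distal convoluted tubule summed to 465 and 514 CPM in adult mCD and to 1.5 and 2.65 CPM in CD organoids, those of the urothelium to 65.1 and 56.3 CPM and to 2.99 and 3.77 CPM, those of leukocytes to 55.5 and 55.3 CPM and to 52.3 and 46.2 CPM, and those of stroma and nephron progenitors to 2.49 and 4.17 CPM and to 18.0 and 10.3 CPM. Of the 6 leukocyte genes, 4 lay at or under 3 counts in each CD organoid library and 1 in each adult library. The leukocyte sum in CD organoids thus rests on few genes. The part of these other cells in the levels below was not tested.

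Of the day 20 libraries, replicate 2 held more reads of several genes that are abundant in the adult than replicate 1. Expressed as a share of the adult mean, *Slc4a9* stood at 0.161% in replicate 2 and at 0 in replicate 1, *Aqp6* at 0.144% and 0.00941%, *Rhcg* at 0.152% and 0.0155%, and the principal cell water channel *Aqp2* at 0.154% and 0.0163%. The thick ascending limb markers showed the same order, with 0.112% in replicate 2 and 0.0262% in replicate 1. The summed proximal tubule markers did not, with 0.816% in replicate 2 and 0.870% in replicate 1. Nor did the summed endothelial markers, with 0.690% and 0.787%, or *Slc26a7*, with 4.16% and 4.45%. Most of the proximal tubule sum was *Lrp2*, whose level was 28.4 CPM (replicate 2) against 32.8 CPM (replicate 1). Every other gene of that list was higher in replicate 2, as *Slc34a1* with 24 counts against 13, though several rested on few counts. Values that rest on day 20 are given with each of its libraries left out where the result moved.

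Promoter sequences were at hand for 5 of the 10 genes, *Aqp6*, *Slc26a4*, *Rhcg*, *Car12* and *Car4*. The 250 bases before the start site are shown for a type A gene, a type B gene and an ammonia channel, whose levels diverged in CD organoids, and for *Atp6v1b1*, which encodes the proton pump subunit particular to intercalated cells and serves as the reference gene below. The sequences are from RefSeq (GRCm38.p6), each read 5′ to 3′ on the strand of its gene. Capitals mark a match to the forkhead core GTAAACA or its reverse complement TGTTTAC, to the TATA box TATAAA (reverse complement TTTATA) or to the GC box CCGCCC (reverse complement GGGCGG), searched on both strands.
Aqp6, chr15:99600950-99601199, plus strand: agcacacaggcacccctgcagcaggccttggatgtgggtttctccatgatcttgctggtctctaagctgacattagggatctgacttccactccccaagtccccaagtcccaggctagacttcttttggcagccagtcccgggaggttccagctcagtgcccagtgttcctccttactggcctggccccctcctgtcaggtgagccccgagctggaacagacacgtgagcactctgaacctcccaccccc
Slc26a4, chr12:31559985-31560234, minus strand: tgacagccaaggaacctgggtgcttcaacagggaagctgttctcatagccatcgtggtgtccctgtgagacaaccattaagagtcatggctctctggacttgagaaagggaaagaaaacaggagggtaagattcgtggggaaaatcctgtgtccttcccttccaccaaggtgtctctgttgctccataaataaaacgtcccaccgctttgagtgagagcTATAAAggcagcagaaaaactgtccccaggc
Rhcg, chr7:79617658-79617907, minus strand: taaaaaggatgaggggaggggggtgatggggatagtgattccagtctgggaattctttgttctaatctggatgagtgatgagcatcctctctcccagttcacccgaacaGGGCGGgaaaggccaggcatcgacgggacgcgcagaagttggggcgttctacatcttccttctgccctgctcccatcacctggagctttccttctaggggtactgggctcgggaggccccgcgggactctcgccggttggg
Atp6v1b1, chr6:83742767-83743016, plus strand: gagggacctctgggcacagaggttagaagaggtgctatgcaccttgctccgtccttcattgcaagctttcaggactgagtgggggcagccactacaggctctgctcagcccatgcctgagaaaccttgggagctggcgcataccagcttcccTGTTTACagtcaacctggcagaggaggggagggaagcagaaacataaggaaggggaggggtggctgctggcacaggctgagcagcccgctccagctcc

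The forkhead core was found 98 bases before the start of *Atp6v1b1* and in none of the 5 member promoters, against 3.17% of all 32851 promoter windows of this length. *Slc26a4* alone among the 5 had a TATA box, 31 bases before its start, a motif held by 12.4% of windows. The GC box, held by 32.7% of windows, lay 141 bases before the start of *Rhcg* and 35 bases before that of *Car12*. The *Aqp6* and *Car4* windows held none of the 3 motifs. No match says only that these letters are missing from the 250 bases.

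**Figure D1:**
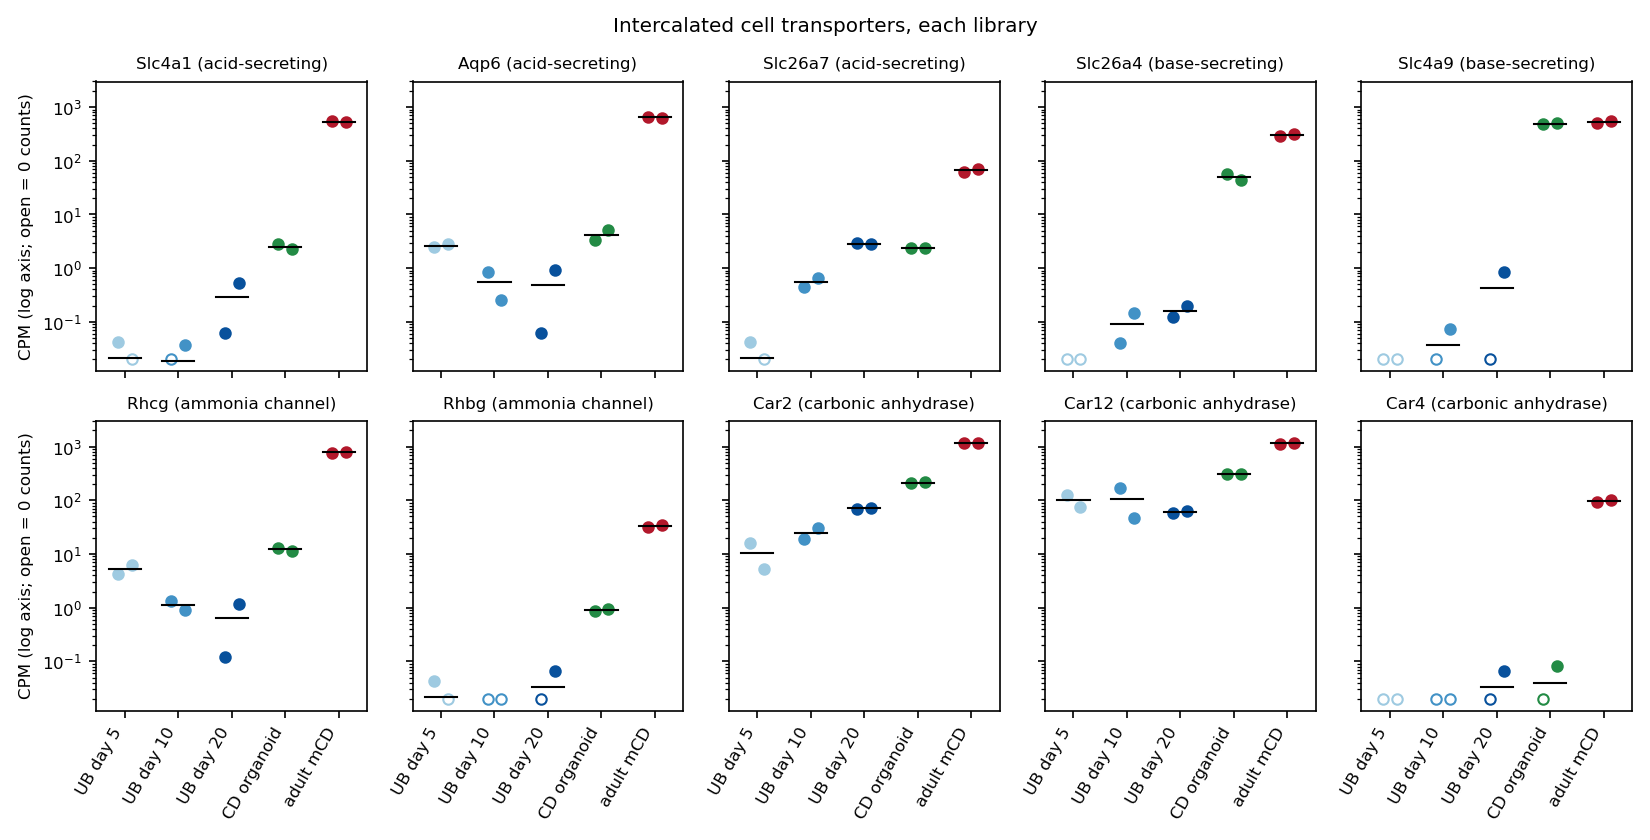
CPM of the 10 transporters in each library on a log axis, by group, with a point for each library, a line for the group mean of 2 libraries and open points for 0 counts. The mean of *Slc4a9* was 491 CPM in CD organoids and 534 CPM in adult mCD, whereas *Slc4a1* and *Aqp6* lay at 2.51 and 4.20 CPM in CD organoids and at 538 and 645 CPM in adult mCD.

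In CD organoids most of the transporters of both cell types stood above their levels in UB organoids, by very unequal amounts, while *Slc26a7* did not stand above its day 20 level. Against day 10, the stage from which CD organoids were made, 8 of the 10 genes were called higher and 0 lower in edgeR's quasi-likelihood test, where a call needed an adjusted p of at most 0.01 and more than 4-fold. For comparison, 4.96% of the 24410 tested genes passed as higher and 5.71% as lower. The median log2 fold change of the 10 genes was 3.26 (3.05 with *Rhbg*, at 0 on day 10, set at its lower bound), beside -0.15 over all genes. Against day 20, 7 were called higher and 0 lower, with a median of 2.96 beside 0 over all genes, where 4.74% of genes were called higher and 4.73% lower. These comparisons share the CD organoid libraries and are not independent of each other.

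The base-secreting genes rose most. *Slc4a9*, on chromosome 18, had 0 and 0 counts on day 5, 0 and 2 on day 10, 0 and 13 on day 20, and 6767 and 6234 counts in CD organoids. The CD organoid libraries stood at 482 and 500 CPM, and no UB library exceeded 0.859 CPM. Its log2 fold change against day 10 was 12.38 ± 0.34 (SE, adjusted p = 3.09e-11), and the ratio of pooled counts was 12909 with a 95% counting interval from 3573 to 106608. With 0 and 2 counts on day 10, the prior count lowered the fitted value. Against day 20 the log2 fold change was 10.04, or 13.18 without replicate 2 and 9.06 without replicate 1 of day 20. Against day 10 it was 13.07 without replicate 2 of day 10.

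*Slc26a4*, on chromosome 12 (31519827 to 31559969, GRCm38), had 0 and 0 counts on day 5, 1 and 4 on day 10, 2 and 3 on day 20, and 788 and 550 in CD organoids. The CD organoid libraries, at 56.1 and 44.1 CPM, lay above every UB library. The log2 fold change was 8.40 ± 0.23 against day 10 (SE, adjusted p = 3.24e-11), or 9.03 without replicate 2 of day 10, and 7.89 ± 0.25 against day 20 (SE, adjusted p = 1.34e-10).

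The acid-secreting genes were also called higher than on day 10, at far lower levels. *Slc4a1*, on chromosome 11 (102348824 to 102366203), had 1 and 0 counts on day 5, 0 and 1 on day 10, 1 and 8 on day 20, and 39 and 28 in CD organoids. Its level in CD organoids, 2.51 ± 0.376 CPM (SD, n = 2), was above every UB library. Its log2 fold change was 5.14 ± 0.48 against day 10 (SE, adjusted p = 8.43e-07), where the ratio of pooled counts was 133 with an interval from 23.1 to 5333. With 0 and 1 counts on day 10, the prior count lowered the fitted value, which the SE does not cover. Against day 20 the log2 fold change was 2.93, or 4.50 without replicate 2 and 2.14 without replicate 1 of day 20.

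*Aqp6*, on chromosome 15 (99601400 to 99605477), encodes a water and anion channel of intracellular vesicles. It had 57 and 68 counts on day 5, 21 and 7 on day 10, 1 and 14 on day 20, and 46 and 64 in CD organoids. In CPM the CD organoid libraries, at 3.28 and 5.13, lay above all UB libraries, of which those of day 5 came closest at 2.43 and 2.78. The log2 fold change was 2.84 ± 0.43 against day 10 (SE, adjusted p = 7.9e-05), or 3.77 without replicate 1 and 2.26 without replicate 2 of day 10. Against day 20 it was 2.99, or 5.21 without replicate 2 and 2.10 without replicate 1 of day 20. *Aqp5*, its neighbour gene on the chromosome, ran the other way between CD organoids and the adult, at 232 ± 6.67 CPM in CD organoids and 0.96 ± 0.135 CPM in adult mCD (SD, n = 2).

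*Slc26a7*, on chromosome 4 (14502430 to 14621805), encodes a chloride/bicarbonate exchanger of the blood side. It was the 1 gene of the 10 called in both steps of the expansion culture, from day 5 to day 10 and from day 10 to day 20, but both calls were lost with prior count 5 (1.49 and 1.94, log2), and the first also with only the 4 libraries compared (adjusted p = 0.0145 in edgeR's quasi-likelihood test). Its counts were 1 and 0 on day 5, 11 and 18 on day 10, 49 and 42 on day 20, and 34 and 29 in CD organoids. CD organoids, at 2.42 and 2.33 CPM, lay below day 20, at 2.97 and 2.78 CPM, without overlap, and the log2 difference of -0.27 (95% interval -0.75 to 0.21, adjusted p = 0.377) did not pass the test. Against day 10 the log2 fold change of 2.01 ± 0.26 (SE, adjusted p = 2.23e-05) lay at the edge of the 4-fold limit, and it fell under that limit without replicate 1 of CD organoids or replicate 1 of day 10.

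The ammonia channels were both higher in CD organoids. *Rhcg*, on chromosome 7 (79593363 to 79617657), had 99 and 155 counts on day 5, 33 and 25 on day 10, 2 and 18 on day 20, and 184 and 143 in CD organoids. The CD organoid libraries, at 13.1 and 11.5 CPM, lay above day 5, at 4.23 and 6.33 CPM, and further above day 10 and day 20. The log2 fold change was 3.42 ± 0.30 against day 10 (SE, adjusted p = 3.51e-07) and 4.17 against day 20, or 6.15 without replicate 2 and 3.31 without replicate 1 of day 20.

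*Rhbg*, on chromosome 3 (88242874 to 88254709), had 1 and 0 counts on day 5, 0 and 0 on day 10, 0 and 1 on day 20, and 12 and 12 in CD organoids. It was at least 7.96-fold higher in CD organoids than on day 10, taken against 3 counts per library (adjusted p = 2.19e-05 in edgeR's quasi-likelihood test). At 0.855 and 0.963 CPM it stayed a low transcript.

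The carbonic anhydrases behaved in 3 ways. *Car2*, the cytosolic enzyme, on chromosome 3 (14886273 to 14900770), had 370 and 129 counts on day 5, 482 and 831 on day 10, 1143 and 1103 on day 20, and 2931 and 2705 in CD organoids. In CPM the groups followed each other without overlap, from 15.8 and 5.27 on day 5 to 19.1 and 30.3 on day 10, 69.4 and 72.9 on day 20, and 209 and 217 in CD organoids. The log2 fold change was 3.10 ± 0.30 against day 10 (SE, adjusted p = 1.05e-06) and, at 1.58 ± 0.28 against day 20 (SE, adjusted p = 3.73e-04), stayed under 4-fold.

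*Car12*, the enzyme of the blood side membrane, on chromosome 9 (66713686 to 66766845), was the most expressed of the 10 in day 5 libraries. Its libraries held 126 and 76.4 CPM on day 5, 168 and 47.5 CPM on day 10, 58.4 and 63.7 CPM on day 20, and 303 and 303 CPM in CD organoids. CD organoids lay above all UB libraries, while the libraries of day 10 lay far apart. The log2 fold change against day 10 was 1.49 ± 0.39 (SE, adjusted p = 5.45e-03), under 4-fold, and became 2.69 and called without replicate 1 of day 10 and 0.87 without replicate 2 of day 10. Against day 20 it was 2.31 ± 0.40 (SE, adjusted p = 3.16e-04) and called.

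*Car4*, a membrane-anchored enzyme known also from the proximal tubule, on chromosome 11 (84957786 to 84966044), was not detectable at this depth in cultured cells. The 8 organoid libraries held 2 counts in all, 1 in replicate 2 of day 20 and 1 in replicate 2 of CD organoids.

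**Figure D2:**
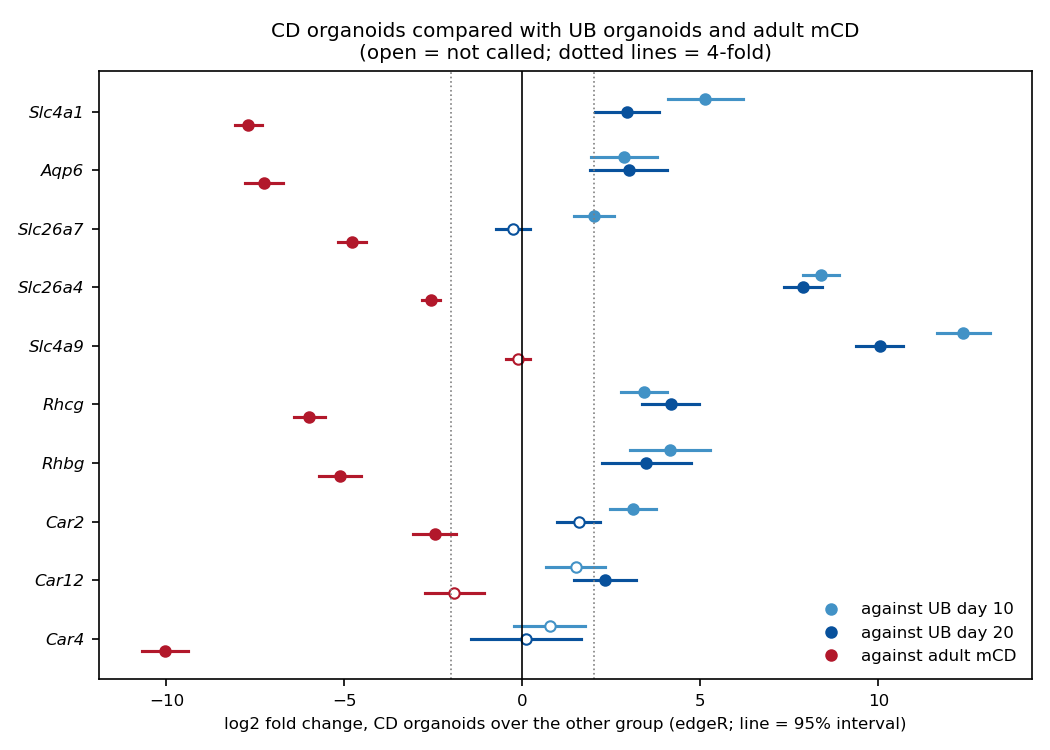
Fitted log2 fold change of each gene in CD organoids against day 10, day 20 and adult mCD, with its 95% interval; filled points were called, and dotted lines mark 4-fold. Values for *Rhbg* and *Car4*, which are near 0 counts outside adult mCD, depend on the prior count of the fit. So do those of *Slc4a1*, *Slc4a9* and *Slc26a4* against UB organoids, where these genes were near 0 counts. Such intervals can be too narrow. All 3 acid-secreting genes lay between -7.70 and -4.78 against adult mCD, and *Slc4a9* lay at -0.12.

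Within the expansion culture, few of the 10 genes were called. Between day 5 and day 10, *Slc26a7* was called higher and *Aqp6* and *Rhcg* lower, 1 and 2 of 10, where 2.34% of all genes were called higher and 1.07% lower. *Slc26a7* changed by 3.01 ± 0.45 (log2, SE, adjusted p = 1.84e-04), with a ratio of pooled counts of 26.4 and an interval from 4.38 to 1078. Its few counts on day 5 let the prior count lower the fitted value, which the SE does not cover. *Aqp6* fell by 2.18 on the log2 scale (SE 0.42, adjusted p = 1.37e-03) and *Rhcg* by 2.21 (SE 0.31, adjusted p = 1.18e-04). The *Aqp6* call was lost without replicate 2 of either day, as was the *Rhcg* call, which leaves 1 gene called. Between day 10 and day 20, *Slc26a7* rose further by 2.28 ± 0.25 (log2, SE, adjusted p = 1.77e-05) and was the 1 gene of 10 called higher, with 0 lower, where 1.66% of all genes were called higher and 1.73% lower. *Slc4a1* and *Slc4a9* were at 2.21 and 2.34 (log2, adjusted p = 0.0264 and 0.069) between these days, and the counts behind them came mostly from replicate 2 of day 20. Without that replicate they were at 0.66 and -0.78, and without replicate 1 of day 20 they were at 3.02 and 3.33 and called.

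Adult mCD held all 10 transporters above their level in UB organoids. All 10 were called higher than on day 20 and 0 lower, with a median log2 fold change of 10.15 beside -0.06 over all genes, where 12.3% of genes were called higher and 6.89% lower. The log2 fold changes ran from 4.05 for *Car2* to 10.63 for *Slc4a1*, and that of *Slc4a9* was 10.16, or 13.30 without replicate 2 and 9.20 without replicate 1 of day 20. Because levels of different genes can be compared only per length, CPM was divided by the length of each gene's longest annotated transcript in kilobases. On this scale *Car2* was highest in adult mCD at 657 ± 12.2, followed by *Rhcg* at 374 ± 4.44, *Aqp6* at 313 ± 5.85, *Car12* at 308 ± 15.0, *Slc4a1* at 118.3 ± 2.37, *Slc4a9* at 118.3 ± 6.30, *Slc26a4* at 96.9 ± 5.79, *Car4* at 77.3 ± 4.72, *Rhbg* at 17.3 ± 1.38 and *Slc26a7* at 12.9 ± 1.00 (SD, n = 2). *Aqp6* and *Car12* did not differ beyond the spread between libraries, nor did *Slc4a1* and *Slc4a9*.

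In CD organoids the same scale gave another order. *Car2* was again first at 119 ± 3.26, but *Slc4a9* followed at 109 ± 2.84, then *Car12* at 81.6 ± 0.0383 and *Slc26a4* at 16.3 ± 2.76 (SD, n = 2). *Rhcg* stood at 5.88 ± 0.552 and *Aqp6* at 2.04 ± 0.638. *Slc4a1*, *Rhbg* and *Slc26a7*, between 0.460 and 0.553, followed below *Aqp6*, and *Car4* was last. *Rhbg* did not differ from *Slc4a1* or from *Slc26a7* beyond the spread. *Slc4a1*, at 0.611 and 0.494, lay above *Slc26a7*, at 0.469 and 0.450. *Car12* led in UB organoids of day 5, at 27.2 ± 9.38, and *Car2* in those of day 20, at 39.8 ± 1.40 (SD, n = 2).

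Set against adult mCD directly, CD organoids lay within 4-fold of the adult for *Slc4a9* and *Car12* and more than 4-fold below it for the other 8 transporters. Of the 10 genes, 8 were called lower and 0 higher, with a median log2 fold change of -4.95 beside 0 over all genes, where 4.5% of genes were called higher and 9.84% lower. *Slc4a9* had 6818 and 7050 counts in adult mCD, at 514 and 554 CPM, against 482 and 500 CPM in CD organoids. The groups did not overlap in CPM, but the log2 difference of -0.12 (95% interval -0.46 to 0.22, adjusted p = 0.56) did not pass the test, and it turned to 0.27 when libraries were scaled by their totals alone, which moved the median of all genes by 0.34. The interval leaves room for a level between 0.725 and 1.17 times that of the adult.

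*Slc26a4* stood at 285 and 310 CPM in adult mCD, above both CD organoid libraries, with a log2 fold change of -2.57 ± 0.11 (SE, adjusted p = 1.44e-09). CD organoids held 18.8% and 14.8% of the adult mean for this gene and 90.2% and 93.6% for *Slc4a9*. For the acid-secreting genes the shares were far smaller.

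*Slc4a1* stood at 545 and 530 CPM in adult mCD, and CD organoids held 0.516% and 0.418% of that mean, a log2 fold change of -7.70 ± 0.17 (SE, adjusted p = 1.72e-12). *Aqp6* stood at 653 and 636 CPM in the adult, of which CD organoids held 0.508% and 0.796% (log2 fold change -7.26 ± 0.24, SE, adjusted p = 3.14e-11). *Slc26a7* stood at 63.1 and 70.4 CPM in the adult, of which CD organoids held 3.63% and 3.48% (log2 fold change -4.78 ± 0.18, SE, adjusted p = 1.11e-10). The shares of *Slc4a1* and *Aqp6* lay under 1%, as did the shares of the marker lists that follow. In CD organoids the summed markers of the proximal tubule stood at 0.155% and 0.259% of their adult level, those of the thick ascending limb at 0.0778% and 0.212%, those of the endothelium at 0.291% and 0.418%, and those of the distal convoluted tubule at 0.306% and 0.541%. The shares of the proximal tubule and thick ascending limb markers lay below those of both genes in each library. The proximal tubule sum included *Lrp2* at 4.91 and 5.29 CPM, a gene with means of 13.0 to 30.6 CPM in UB organoids. The distal convoluted tubule sum included *Trpm6* at 1.14 and 1.20 CPM, with means of 4.46 to 13.6 CPM in UB organoids. Several of these markers had more counts in replicate 2 of CD organoids than in replicate 1, as *Slc12a1* (34 against 8), *Umod* (30 against 9) and *Slc34a1* (29 against 9). *Aqp6* ran the same way (64 against 46), while *Slc4a1* (28 against 39) and *Rhcg* (143 against 184) ran the other way. Whether any of the *Slc4a1* and *Aqp6* reads shared a source with the reads of these markers was not tested.

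AE1 is also the anion exchanger of red blood cells, so the erythroid genes were read beside *Slc4a1*. The erythroid markers summed to 28.4 and 18.4 CPM in adult mCD and to 0.855 and 1.20 CPM in CD organoids, with 2 and 3 of the 10 at 0 in the adult libraries and 7 and 5 at 0 in CD organoids. The leading globin gene, *Hbb-bs*, stood at 13.5 CPM in adult mCD, where *Slc4a1* stood at 538 ± 10.8 CPM (SD, n = 2).

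The ammonia channels were lower in CD organoids than in the adult, where *Rhcg* stood at 776 and 789 CPM and *Rhbg* at 31.6 and 35.4 CPM. CD organoids held 1.67% and 1.47% of the adult mean of *Rhcg* and 2.55% and 2.88% of that of *Rhbg*. The log2 fold changes were -5.98 ± 0.21 (SE, adjusted p = 4.09e-11) and -5.13 ± 0.27 (SE, adjusted p = 7.36e-09).

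Among the carbonic anhydrases, *Car2* stood at 1159.99 and 1191 CPM and *Car12* at 1105 and 1184 CPM in the adult. CD organoids held 17.8% and 18.5% of the adult mean of *Car2*, a called difference (log2 fold change -2.47 ± 0.28, SE, adjusted p = 5.29e-06). They held 26.5% in each library for *Car12*, whose difference of -1.92 ± 0.39 (SE, adjusted p = 8.71e-04) stayed under 4-fold. *Car4* had 1233 and 1289 counts in the adult against 0 and 1 in CD organoids, a ratio of pooled counts of 2573 with an interval from 461 to 101657. The proximal tubule and endothelial markers given above were also far higher in adult mCD.

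**Figure D3:**
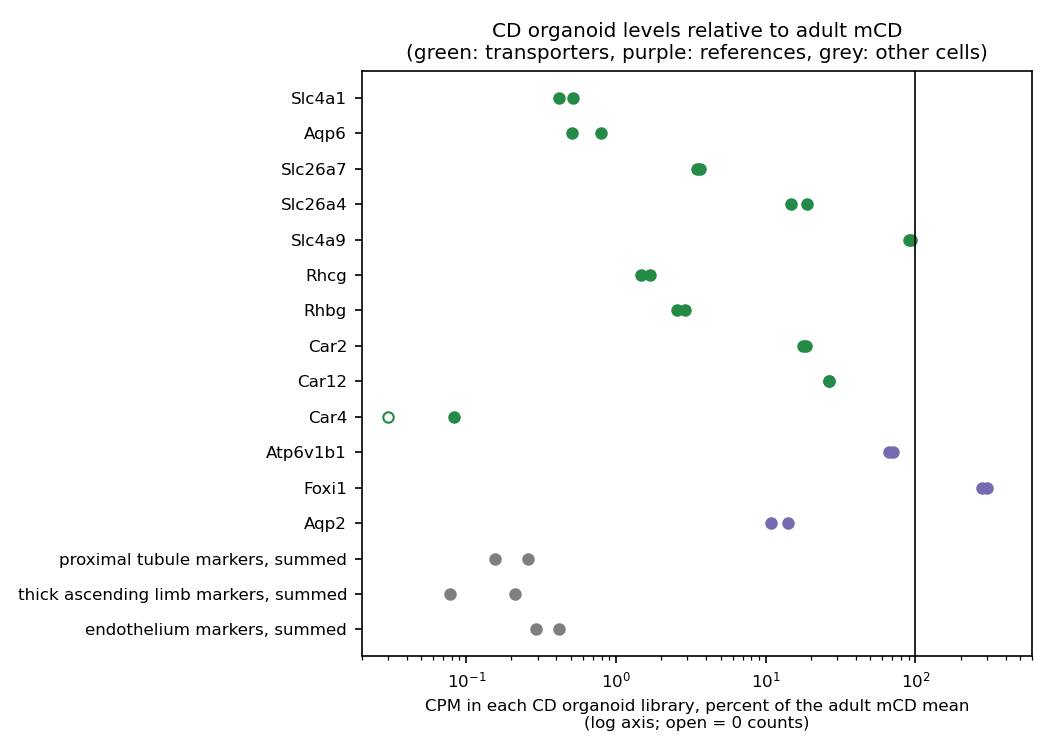
CPM of each gene, or summed CPM of each marker list, in the 2 CD organoid libraries as a percentage of the adult mCD mean on a log axis; the vertical line marks 100% and the open point 0 counts. *Slc4a9* lay at 90.2% and 93.6%, and *Slc4a1* and *Aqp6* lay under 1%, as did the summed markers of the proximal tubule, thick ascending limb and endothelium.

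Genes that both types of intercalated cell share stood closer to their adult level. *Atp6v1b1* stood at 415 ± 20.3 CPM in CD organoids and 606 ± 14.7 CPM in adult mCD, and *Foxi1* at 490 ± 25 and 169 ± 0.537 CPM (SD, n = 2). Taken as a percentage of *Atp6v1b1* in the same library, *Slc4a1* stood at 0.561% to 0.647% in CD organoids and 86.0% to 91.6% in the adult, and *Aqp6* at 0.764% to 1.28% and 103% to 110%. *Rhcg* stood at 2.87% to 3.05% and 128% to 130%. *Slc4a9* instead stood at 112% to 125% in CD organoids and 86.3% to 89.9% in the adult, and *Slc26a4* at 11.0% to 13.1% and 47.9% to 50.4%.

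The summed acid-secreting genes and the summed base-secreting genes gave opposite balances in CD organoids and in the adult. Per kilobase of the longest transcript, the acid-secreting genes summed to 2.67 and 3.44 in CD organoids and the base-secreting genes to 125 and 125. In adult mCD the sums were 449 and 439 for acid secretion and 207 and 224 for base secretion. The log2 ratio of acid to base was -5.37 ± 0.257 in CD organoids and 1.05 ± 0.105 in adult mCD (SD, n = 2), and the libraries did not overlap. With the deposited RPKM, whose gene length adds up the exons of all transcripts and is 7.39 times the longest transcript for *Slc4a9*, the ratios were -3.90 ± 0.326 and 1.48 ± 0.108. UB organoids held so few counts of the base-secreting genes, 0 to 16 per library, that no balance was read from them.

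**Figure D4:**
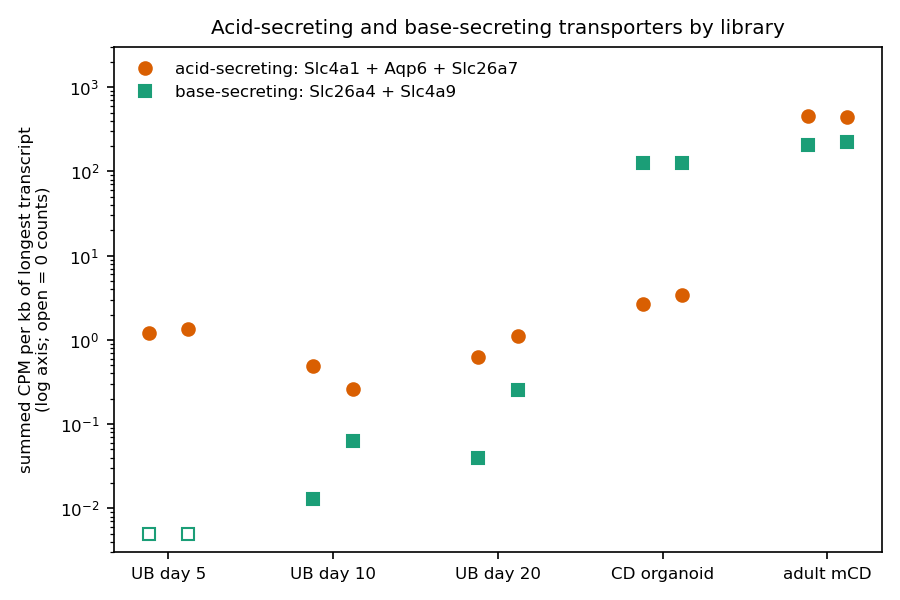
Summed CPM per kilobase of longest transcript of the acid-secreting genes (circles) and the base-secreting genes (squares) in each library, on a log axis with open points for 0 counts. The base-secreting sum was above the acid-secreting sum in both CD organoid libraries and below it in both adult libraries.

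Other genes known from the type A cell stood closer to their adult level than its transporters. Of 4 other type A genes, 3 were called higher in CD organoids than on day 10 and 0 lower, and against the adult 1 was called higher and 0 lower. All 4 differed from the adult at an adjusted p of at most 0.05 in edgeR's quasi-likelihood test without the fold limit. *Adgrf5*, an adhesion receptor, stood at 240 CPM in CD organoids and 681 CPM in the adult, the transcription factor gene *Dmrt2* at 133 and 25.6 CPM (log2 fold change 2.38, called), the vasopressin receptor gene *Avpr1a* at 37.2 and 52.8 CPM and the receptor kinase gene *Kit* at 311 and 156 CPM. Their sum stood at 82.9% and 74.7% of the adult mean in the CD organoid libraries, where the 3 acid-secreting transporters stood at 0.678% and 0.777%. *Kit*, the 1 of the 4 not called against day 10, gave 326 and 296 CPM of that sum. It already had means of 126 to 168 CPM in UB organoids, where the sum stood at 13.5% to 18.5% of the adult mean. Of 4 other type B genes, 3 were called higher than on day 10 and 1 was called lower than in the adult. The latter was *Oxgr1*, the oxoglutarate receptor, at 0.503 and 138 CPM (log2 fold change -7.99, adjusted p = 7.8e-11). The receptor kinase gene *Insrr* stood at 175 and 285 CPM, the homeobox gene *Hmx2* at 35.4 and 44.4 CPM and the sodium-driven bicarbonate exchanger *Slc4a8* at 57.3 and 94.3 CPM, none of them called against the adult. Without the fold limit, 3 of the 4 type B genes differed from the adult at an adjusted p of at most 0.05 in the same test.

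The proton pump of intercalated cells also rose. All 5 V-ATPase subunits of intercalated cells were called higher in CD organoids than on day 10 and on day 20, with medians of 10.85 and 7.92, and 0 of 5 was called against the adult, where the median was -0.55. *Atp6v1b1*, *Atp6v0a4*, *Atp6v0d2* and *Atp6v1g3* were at -0.55, -1.59, 0.04 and -0.92 against the adult. The 3 shared intercalated genes *Foxi1*, *Tfcp2l1* and *Hepacam2* were all called higher than on day 10, with a median of 9.84, and 0 of 3 was called against the adult, with a median of 0.90. Without the fold limit, 3 of the 5 subunits and all 3 shared genes differed from the adult at an adjusted p of at most 0.05 in edgeR's quasi-likelihood test. The study describes *Tfcp2l1* as expressed in principal cells too, and its means in UB organoids were 89.6 to 236 CPM.

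Relatives of the transporters were read from the same fit. Of 8 other SLC4 genes tested, 0 were called against day 10, with a median of 0.22, and 4 were called lower than in the adult. Among these *Slc4a4*, the sodium bicarbonate cotransporter of the proximal tubule, stood at 34.8 CPM in CD organoids and 575 CPM in the adult (log2 fold change -4.04), while *Slc4a2*, *Slc4a7* and *Slc4a8* were at 0.67, 1.27 and -0.72 and not called. Of 7 other SLC26 genes, with a median of -0.16, 0 were called higher and 1 lower than on day 10, which was *Slc26a9*, named after its values were seen, and 2 were called lower than in the adult. *Slc26a1*, at 2.27 and 139 CPM, was among these, and *Slc26a2*, *Slc26a11* and *Slc26a6* were not called.

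Of 10 other carbonic anhydrases, 2 were called higher than on day 10 and 1 lower, with a median of -0.11. *Car5b*, a mitochondrial enzyme, was at 3.44 against day 10 and -0.11 against the adult (log2, the second not called), and *Car13* and *Car3*, named after their values were seen, were at 3.15 and -3.44 against day 10. *Car8* was the 1 gene of the family called higher than in the adult, at 34.7 and 5.65 CPM, and 4 were called lower, *Car14* among them at 0.423 and 40.9 CPM. *Car9* stood at 33.3 CPM on day 5 and at 1.10 CPM on day 10. Of the 2 other Rh genes, *Rhd* was called lower than on day 10, at 0 CPM in CD organoids and 0.622 CPM on day 10, and *Rhag* stayed at or under 0.131 CPM in every group.

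The genes whose levels ran most like each transporter were found by Pearson's r of log2(CPM + 1) over the 10 libraries among 11929 genes with a group mean of at least 10 CPM. These values describe 10 libraries in 5 groups and share the differences between the groups. Closest to *Slc4a1* were *Trpv5*, *Rhbg*, *B830017H08Rik*, *Ptger3* and *Cyp4b1* (r from 0.9982 to 0.9989), of which *Ptger3* is also a thick ascending limb marker. Closest to *Slc4a9* were the proton pump subunit *Atp6v0d2*, *Asb15*, *Hmx2*, *Avpr1a* and *Lgals9* (r from 0.9978 to 0.9996). Of these, *Hmx2* was listed above with the other type B genes and *Avpr1a* with the other type A genes. For *Slc26a4* they were *Tmem213*, *Wdr72*, *Cystm1*, *Tldc2* and *Epsti1* (r from 0.9979 to 0.9995), and for *Rhcg*, with lower values, *Scin*, *Baiap2l2*, *Chchd3*, *Uqcrc1* and *Ndufb10* (r from 0.9946 to 0.9971). The number of genes at r of at least 0.99 ran from 27 for *Rhcg* to 123 for *Slc4a1*.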

How the data were processed

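The authors deposited 1 table for the series with, for each library, raw counts, a TMM-scaled signal and RPKM, beside a gene length. Per the labels' processing notes the tools included FastQC 0.11.8, Trimmomatic 0.36, cutadapt 2.5, STAR and edgeR 3.28.1; the study's methods name STAR and quantification to the Partek E/M annotation model. The labels name a TruSeq library and the study's methods a stranded KAPA kit. Of the gene IDs, 99.69% are in GENCODE M21 (GRCm38). The deposited length sums the exons of all transcripts of a gene, so the RPKM the authors deposited understates genes with many transcripts, and levels of different genes were compared as CPM per kilobase of the longest M21 transcript, a scale added after the data were seen. A deposited signal column was used only in an alternative with limma.

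Counts as deposited were tested in edgeR 4.0.16 (R 4.3.3): 24410 genes whose counts summed to 10 or more, TMM factors (0.792 to 1.12), 1 fit of 5 group means, glmQLFit and glmQLFTest, prior count 1 and Benjamini-Hochberg adjustment over all genes tested. A call needed an adjusted p of at most 0.01 and more than 4-fold. CPM used TMM-scaled library sizes. Each SE was the size of the log2 fold change over the square root of the F statistic, and fitted 95% intervals rest on it. The prior count draws the fold changes of genes near 0 counts toward 0. Their SE and intervals can then be too narrow and can exclude the ratio of pooled counts. Ratios of pooled counts carry exact 95% intervals that cover counting error only, and a count of 0 was read against 3 counts. The script was tested on simulated counts. *Rhcg* and *Rhbg* overlap short gene models on the same strand, which the counting could split.

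The members and gene lists were chosen with earlier results of these data known. The genes named were the 10 members, up to 4 genes of each related list by mean CPM, the 5 genes most like 4 of the members, and the references *Atp6v1b1*, *Foxi1*, *Aqp2* and *Aqp5*. Alternatives were other scalings (RLE, library totals), filters, prior count 5, DESeq2 1.42.0, limma 3.58.1 with pseudocount 1, a replicate block, fits on the 4 libraries compared, and each library left out. Human libraries and primary UB or trunk libraries of the study were not analysed here. The result of 1 list of related genes is not reported here.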

Additional observations from a re-analysis of the deposited data

How the results depend on the processing

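Of the comparisons of the 10 genes, those of CD organoids with day 10, day 20 and adult mCD and of adult mCD with day 20 kept their counts of called genes within 1.5 times of the values given under every alternative run. The replicate numbers did not pair the libraries (correlations of same-numbered deviations from -0.0753 to 0.0961), and the replicate block gave 8, 7, 8 and 10 called genes in these comparisons and 3 and 1 in the expansion culture. Between day 5 and day 10 the 3 calls fell to 1 with prior count 5, with only the 4 libraries compared and with limma, and lay between 1 and 4 with a library left out. Between day 10 and day 20 the 1 call became 3 without a count filter and when an adjusted p of 0.05 sufficed without a fold limit, 0 with prior count 5, and 1 to 3 with a library left out. The acid to base log2 ratio, -3.90 in CD organoids and 1.48 in adult mCD by the deposited RPKM, was -5.90 and 0.59 in CPM and -5.37 and 1.05 per kilobase of longest transcript.

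Directions turned in 9 cases, none of them past the threshold. From day 10 to day 20 they were *Aqp6* (0.79 without replicate 1 of day 10, 0.76 without replicate 1 of day 20; range with a library left out -2.36 to 0.79), *Slc4a9* (-0.78 without replicate 2 of day 20; -0.78 to 3.33), *Rhcg* (0.13 without replicate 1 of day 20; -2.73 to 0.13) and *Car12* (0.39 without replicate 1 of day 10; -1.43 to 0.39). From day 5 to day 10 *Car12* was at -0.22 without replicate 2 of day 5 and -1.10 without replicate 1 of day 10, in a range from -1.10 to 0.72. *Slc4a9* in CD organoids against adult mCD was at 0.27 by library totals and 0.27 by limma. The causes were not tested.

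Among single genes, 20 other values lost a call and 12 gained one, and 686 kept both direction and call. The call of *Slc26a7* in CD organoids against day 10 was lost under 6 alternatives (1.69 to 1.99). In the same comparison *Slc4a1* kept its call but ran from 3.27 to 7.11 around the value of 5.14.

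Over all genes, CD organoids against adult mCD gave 1098 higher and 2401 lower calls, but 1607 and 2010 by library totals and 1897 and 2252 by limma. Adult mCD against day 20 gave 3005 and 1683, but 2469 and 2420 by library totals and 2653 and 2652 by limma. From day 5 to day 10 the counts were 571 and 261, but 370 and 148 with prior count 5, 376 and 163 with only the 4 libraries compared and 654 and 395 without replicate 1 of day 10. From day 10 to day 20 they were 406 and 422, but 267 and 281 with prior count 5, 291 and 214 with only the 4 libraries compared and 353 and 233 without replicate 1 of day 20. Depth limits *Car4* and, in UB organoids, *Slc4a1*, *Slc4a9*, *Slc26a4* and *Rhbg*, which lay near or under 3 counts in most libraries there.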
